A study of Mus musculus with 2 samples.

Results

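Interferons are secreted cytokines that warn cells of infection. They bind paired receptor chains, the receptors activate JAK kinases and STAT proteins, and STAT and IRF transcription factors then switch on interferon-stimulated genes through promoter elements called the ISRE and the GAS. Among the genes they raise are those that load peptides onto MHC class I molecules at the cell surface. The genes described here are 34 named genes of this system: 4 interferon receptor chains, 9 transcription factors, 8 sensors and adaptors of foreign nucleic acid or microbial products, 5 genes commonly used as signs of an interferon response, 6 genes of MHC class I presentation and 2 transactivators of MHC genes. They were listed by name, with no threshold on their values, and all 34 were found by gene identifier among the 43346 gene entries of the tables. Mb21d1, the cytosolic DNA sensor cGAS, carries the name Cgas in the annotation used for symbols.

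The RNA came from G1E, an immortalized line of mouse cells, labelled Gata1- and an erythroid progenitor, male and postnatal with an age of 0 days. There was 1 group of 2 paired-end libraries of polyadenylated RNA, replicate 1 and replicate 2, with no treatment named, so the data hold no comparison of an interferon-treated state with an untreated one. Both libraries are labelled as biological replicates, yet they share a single biological sample record, so the spread between them may be technical. All values describe this single line in culture.

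The tables summed to 61982634 expected counts for replicate 1 and 80658648 for replicate 2. Gata1 was present at 48.0 TPM and 46.6 TPM in the libraries labelled Gata1-, and the gene tables do not show from which part of the gene these reads came. All 10 erythroid markers, such as Klf1, Gfi1b and Tfrc, reached 1 TPM in each of the libraries. Of 42 markers of macrophages, dendritic cells, B cells, T and NK cells, fibroblasts and endothelial cells, 2 reached that level, Cd68 (2.21 TPM and 2.29 TPM) and Lck (1.82 TPM and 1.35 TPM). Summed over these 42 genes the level was 4.61 TPM and 4.62 TPM, and 19 of them had no count in either library.

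G1E cells held RNA for all 4 interferon receptor chains, for 6 of the 9 transcription factors and for 5 of the 6 class I presentation genes, while Ifit1, Ifit2, Ifit3, Isg15 and Usp18 were each below 1 TPM. A gene is called detected here at 1 TPM (a level corrected for transcript length and scaled to the total of the library) or more in both libraries. By that rule 18 of the 34 genes were detected, 15 were below 1 TPM in both libraries and 1, Tmem173, crossed the level between them. Among all 21474 protein-coding genes 40.0% were detected. The median over all 34 genes was 2.51 TPM in replicate 1 and 4.33 TPM in replicate 2, beside 0.03 TPM in each library over all protein-coding genes. The 18 detected genes had a median of 14.7 TPM and 14.1 TPM, beside 16.97 TPM and 19.02 TPM over all detected protein-coding genes.

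**Figure D1:**
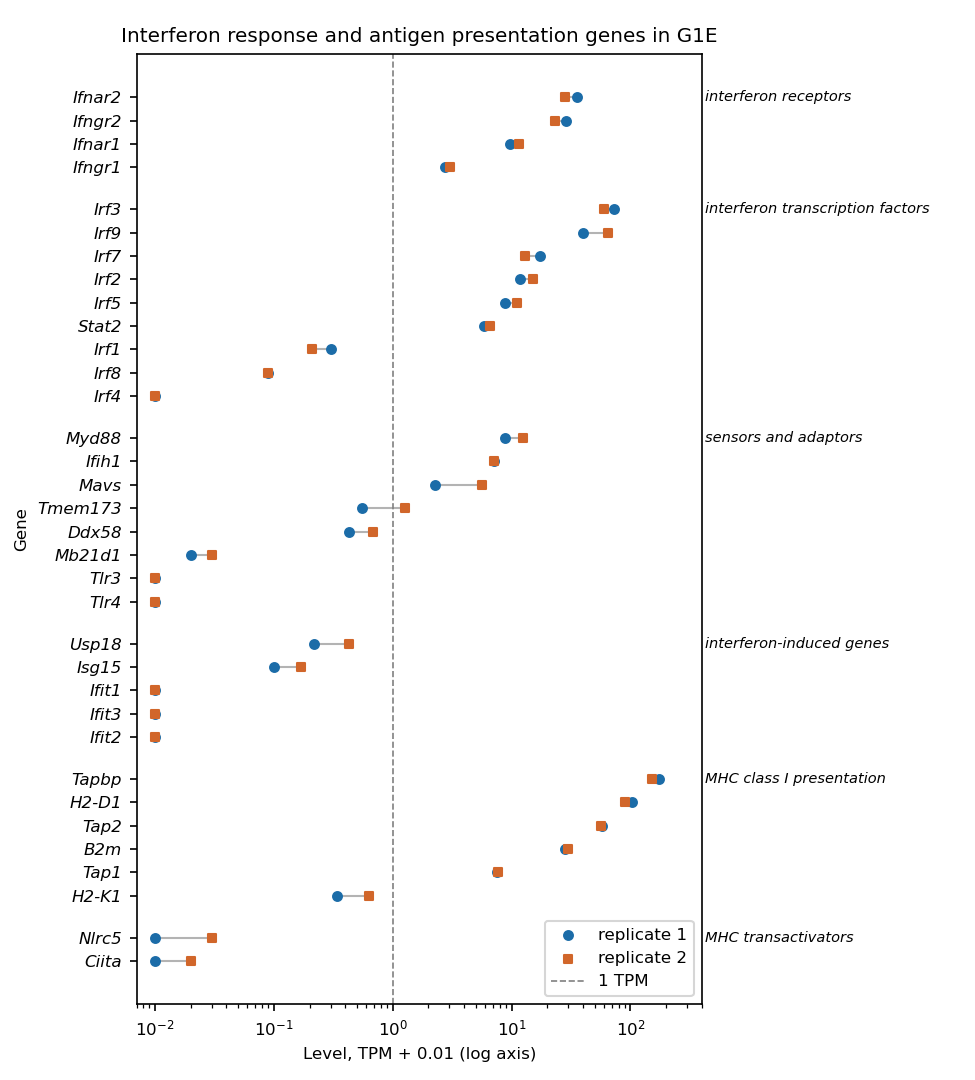
Level of each of the 34 genes in replicate 1 (circles) and replicate 2 (squares), as TPM + 0.01 on a log axis, grouped by role and ordered by mean within a role; grey lines join the 2 libraries of a gene and the dashed line marks 1 TPM. All 4 receptors lie right of that line and all 5 interferon-induced genes left of it, and Tapbp is the highest gene at 174 TPM and 153 TPM.

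The promoters that carry the ISRE show that the motif occurs both in silent and in expressed genes of this set. The sequences below are stretches of RefSeq promoters on GRCm38.p6, the same base assembly as mm10, written 5′ to 3′ in the direction of the gene and ending upstream of the annotated start. Capitals mark each match to the ISRE core GAAANNGAAA or its reverse complement. The first 3 belong to interferon-induced genes that were below 1 TPM here, and the other three to genes that were detected.
Isg15, minus strand, chr4:156200849-156200978: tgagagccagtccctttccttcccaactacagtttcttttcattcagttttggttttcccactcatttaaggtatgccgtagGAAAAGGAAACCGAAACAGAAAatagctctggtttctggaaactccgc
Ifit1, plus strand, chr19:34640729-34640858: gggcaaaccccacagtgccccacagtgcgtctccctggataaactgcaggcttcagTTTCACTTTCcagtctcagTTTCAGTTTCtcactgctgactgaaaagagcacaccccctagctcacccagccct
Ifit3, plus strand, chr19:34583369-34583498: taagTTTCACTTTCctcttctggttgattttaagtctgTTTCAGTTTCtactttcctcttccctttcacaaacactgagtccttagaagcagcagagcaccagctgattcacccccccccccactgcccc
B2m, plus strand, chr2:122147527-122147656: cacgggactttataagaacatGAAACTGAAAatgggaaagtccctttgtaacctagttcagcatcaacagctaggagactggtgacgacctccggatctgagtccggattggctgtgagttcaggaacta
Irf2, plus strand, chr8:46739495-46739574: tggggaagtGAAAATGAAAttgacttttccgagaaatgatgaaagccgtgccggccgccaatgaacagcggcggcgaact
Stat2, plus strand, chr10:128270248-128270327: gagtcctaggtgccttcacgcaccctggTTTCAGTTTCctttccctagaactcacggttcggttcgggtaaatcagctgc

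Matches begin 78, 72 and 66 bases upstream of the start in Isg15, where the 3 matches overlap into a single run. They begin 104 and 85 bases upstream in Ifit1, 156 and 122 in Ifit3, 139 in B2m, 241 in Irf2 and 222 in Stat2. Promoter windows from 250 bases before to 50 after the start were found for 28 of the 34 genes, and 9 of the 28 (32.1%) held the ISRE core on either strand. Of all 27025 genes with such a window, 1079 (3.99%) held it. The 9 genes were Stat2, Irf2, Ddx58, Ifih1, Myd88, Ifit1, Ifit3, Isg15 and B2m. Of these, 5 were detected and 4 were below 1 TPM in both libraries, and their median level was 5.87 TPM and 6.58 TPM. The 19 genes without a match had 12 detected, 7 below 1 TPM, and a median of 7.53 TPM and 7.74 TPM.

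The GAS motif TTCNNNGAA, which reads the same on both strands, was in 7 of the 28 windows and in 9.55% of all genes' windows. It was found in Ifnar1, Ifnar2, Irf1, Irf2, Irf8, Myd88 and Ifit2. In Myd88 the GAS match overlaps the ISRE match, the first beginning 46 and the second 40 bases upstream of the start. A match is a run of letters only, and no binding was measured.

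All 4 receptor chains were detected. The type I interferon receptor is a pair of Ifnar1 and Ifnar2, and the interferon gamma receptor pairs Ifngr1, which binds the ligand, with Ifngr2. Ifnar2 was at 35.4 TPM in replicate 1 and 28.2 TPM in replicate 2, and Ifnar1 at 9.77 TPM and 11.5 TPM. Ifngr2 was at 28.6 TPM and 23.1 TPM, and Ifngr1 at 2.76 TPM and 3.03 TPM. In both libraries 1 chain of each pair was well below its partner. Ifnar1 was 3.62-fold and 2.45-fold lower than Ifnar2, a log2 ratio of -1.58 ± 0.397 (SD, n = 2). Ifngr1 was 10.4-fold and 7.63-fold lower than Ifngr2, a log2 ratio of -3.15 ± 0.310 (SD, n = 2). In neither library did the authors' deposited credibility interval of Ifngr1 (2.13 to 3.92 TPM and 2.43 to 4.09 TPM) overlap that of Ifngr2 (27.4 to 29.0 TPM and 22.2 to 23.6 TPM). In the coding transcripts of GENCODE's basic set alone the gap was wider. Ifngr1 was there at 0.97 TPM and 1.37 TPM and Ifngr2 at 28.3 TPM and 22.7 TPM, so Ifngr1 was 29.2-fold and 16.6-fold lower.

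Of these chains 3 are neighbours. Ifnar2, Ifnar1 and Ifngr2 lie on the plus strand of chromosome 16 between 91372783 and 91565623 (mm10), a stretch of 5 protein-coding genes of which 4 were detected. The fourth detected gene there was Il10rb, a chain shared by receptors of interleukin 10 and type III interferon, at 16.5 TPM and 18.4 TPM. Ifngr1, the lowest chain, is on chromosome 10.

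Of the 9 transcription factors, 6 were detected. Irf3, which is activated by the nucleic acid sensors, was at 72.7 TPM and 59.6 TPM. Irf9, the DNA-binding subunit of the ISGF3 complex, was at 39.7 TPM and 64.9 TPM. The ranges of Irf3 and Irf9 overlap between the libraries, so their order is not fixed. Stat2, the partner of Irf9 in that complex, was at 5.87 TPM and 6.58 TPM, below Irf9 in each library.

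Irf7, the amplifier of type I interferon production, was at 17.5 TPM and 13.1 TPM. Irf2, an antagonist of Irf1 at shared sites, was at 11.9 TPM and 15.2 TPM. By gene-level TPM these 2 genes swapped order between the libraries. In basic coding transcripts alone Irf7 was at 4.57 TPM and 4.55 TPM, below Irf2 in both libraries. Irf5, which acts downstream of Toll-like receptors, followed at 8.82 TPM and 11.1 TPM. Irf1, itself an interferon-induced activator, was at 0.29 TPM and 0.20 TPM on 10 and 15 counts. The levels of Irf1 in both libraries were below those of Irf2 by more than the spread of either gene. Irf8, a factor of macrophages, dendritic cells and B cells, was at 0.08 TPM in each library on 4 and 6 counts. Irf4, a factor of lymphoid and dendritic cells, had no count. A count of 0 allows up to 3 counts, which for Irf4 is 0.0118 TPM and 0.00929 TPM.

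By gene-level TPM, sensors of double-stranded RNA differed widely. Ifih1 encodes MDA5, which recognises long double-stranded RNA, and was at 7.05 TPM in each library. Ddx58 encodes RIG-I, which recognises RNA ends, and was at 0.42 TPM and 0.67 TPM. In the coding transcripts of GENCODE's basic set alone Ifih1 was at 0.67 TPM and 1.12 TPM, near the gene level of Ddx58. Ddx58 was not split by transcript. Mavs, the mitochondrial adaptor on which both signal, was at 2.25 TPM and 5.62 TPM. Myd88, the adaptor of most Toll-like receptors and of the interleukin 1 receptor family, was at 8.75 TPM and 12.5 TPM. These levels put Ifih1, Mavs and Myd88 as the 3 detected genes of the 8 in this role.

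Tmem173 encodes STING, the adaptor that answers the cyclic dinucleotide made by cGAS, and lay below 1 TPM in replicate 1 (0.54 TPM) and above it in replicate 2 (1.27 TPM). Mb21d1, cGAS itself, had 1 count and 4 counts, 0.01 TPM and 0.02 TPM. Tlr3, the endosomal receptor of double-stranded RNA, had no count in either library, which allows up to 0.0134 TPM and 0.0106 TPM. Tlr4, the receptor of lipopolysaccharide, also had none, which allows up to 0.0330 TPM and 0.0261 TPM by counting alone. The authors' deposited upper credibility bounds for Tlr4 were higher, at 0.2205 TPM and 0.176 TPM.

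None of the 5 interferon-induced genes was detected. Ifit1, Ifit2 and Ifit3, whose proteins bind or act on viral RNA, had no count in either library. For Ifit1 a count of 0 allows up to 0.0214 TPM in replicate 1 and 0.0169 TPM in replicate 2. For Ifit2 it allows up to 0.0254 TPM and 0.0201 TPM by counting alone. The authors' deposited upper credibility bounds for Ifit2 were higher, at 0.0998 TPM and 0.0802 TPM. These 3 genes lie on chromosome 19 between 34550694 and 34650009 (mm10) in a cluster of 6 protein-coding genes, and none of the 6 had a count. Isg15, a ubiquitin-like modifier, had 3 and 7 counts, 0.09 TPM and 0.16 TPM. Usp18, the protease that removes Isg15 and restrains the type I receptor, had 19 and 48 counts, 0.21 TPM and 0.42 TPM. It was the highest of the 5 in both libraries. Isg15, Ifit1 and Ifit3, whose promoters above hold overlapping or paired ISRE matches, are thus among the genes with few or no reads.

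MHC class I presentation was the role with the highest levels, with 5 of 6 genes detected. Tapbp encodes tapasin, which holds class I molecules at the peptide transporter, and was at 174 TPM and 153 TPM. Its mean was at percentile 90.7 of detected protein-coding genes. H2-D1, a classical class I heavy chain, was at 104 TPM and 89.3 TPM, at percentile 84.3. Tap2, a subunit of the peptide transporter, was at 58.0 TPM and 56.9 TPM. B2m, the light chain shared by all class I molecules, was at 28.4 TPM and 29.9 TPM. Tap1, the other transporter subunit, was at 7.53 TPM and 7.74 TPM. By gene-level TPM these 5 genes kept the same order in both libraries, with no overlap between neighbours. In basic coding transcripts alone the order differed, with H2-D1 highest (102.8 TPM and 88.0 TPM), then B2m, and Tapbp at 21.7 TPM and 20.6 TPM.

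H2-K1, the other classical heavy chain here, stood far below H2-D1. It had 13 counts in replicate 1 (exact 95% Poisson interval 6.92 to 22.2) and 35 in replicate 2 (24.4 to 48.7), against 11263 and 12193 for H2-D1. In TPM it was at 0.33 and 0.62, so H2-D1 was 315-fold and 144-fold higher, a log2 ratio of 7.73 ± 0.797 (SD, n = 2). Class I heavy chains share stretches of sequence, and the deposited counts divide shared reads by a model. Both values therefore carry an uncertainty that counting error does not cover. The leading H2-K1 transcript is a model of 892 bases. Of its 50-base windows 10.6% also occur in transcripts of other genes, and of its 793 windows of 100 bases none does. For the leading H2-D1 transcript, of 2102 bases, these shares are 14.3% and 4.64%. These shares come from exact matches of 1 reference transcript of each gene, and the part of shared reads in the difference was not tested. Whether the line carries other alleles at H2-K1 was not tested either.

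The summed level of the class I chains was far above that of the 5 interferon-induced genes, although H2-K1 alone was near Usp18. H2-K1, H2-D1 and B2m summed to 132.6 TPM and 119.9 TPM, and Ifit1, Ifit2, Ifit3, Isg15 and Usp18 to 0.30 TPM and 0.58 TPM. The class I sum was 442-fold and 207-fold higher, a log2 ratio of 8.24 ± 0.775 (SD, n = 2). Both sums rest on few genes, the first on H2-D1 and B2m and the second on Usp18 and Isg15.

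Neither transactivator was detected. Nlrc5, the transactivator of MHC class I genes, had 0 and 4 counts, and Ciita, that of MHC class II genes, 0 and 2. Their highest levels were 0.02 TPM and 0.01 TPM, both in replicate 2. For Nlrc5 the authors' deposited credibility intervals lay higher, at 0.0178 to 0.169 TPM in replicate 1 and 0.0269 to 0.170 TPM in replicate 2.

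A group of 5 genes shares the MHC region of chromosome 17. From Tapbp at 33915899 to H2-Q10, ending at 35474563 (mm10), the annotation lists 99 protein-coding genes, of which 52 (52.5%) were detected. H2-K1 and H2-D1 lie 1262.4 kb apart in it. The genes next to H2-K1 were both well expressed, with Vps52 at 120.6 TPM and 137 TPM and Ring1 at 58.6 TPM and 46.9 TPM. Ddx39b, on one side of H2-D1, was at 357 TPM and 365 TPM, while H2-Q1 on the other side had no count. None of the 6 H2-Q genes was detected, the highest being at 0.05 TPM in replicate 1 and 0.06 TPM in replicate 2. None of the 9 class II chains of the region was detected either, and the highest was at 0.07 TPM and 0.13 TPM. Between Tap1 and Tap2 lies Psmb8, an interferon-induced proteasome subunit, at 0.26 TPM and 0.16 TPM.

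**Figure D2:**
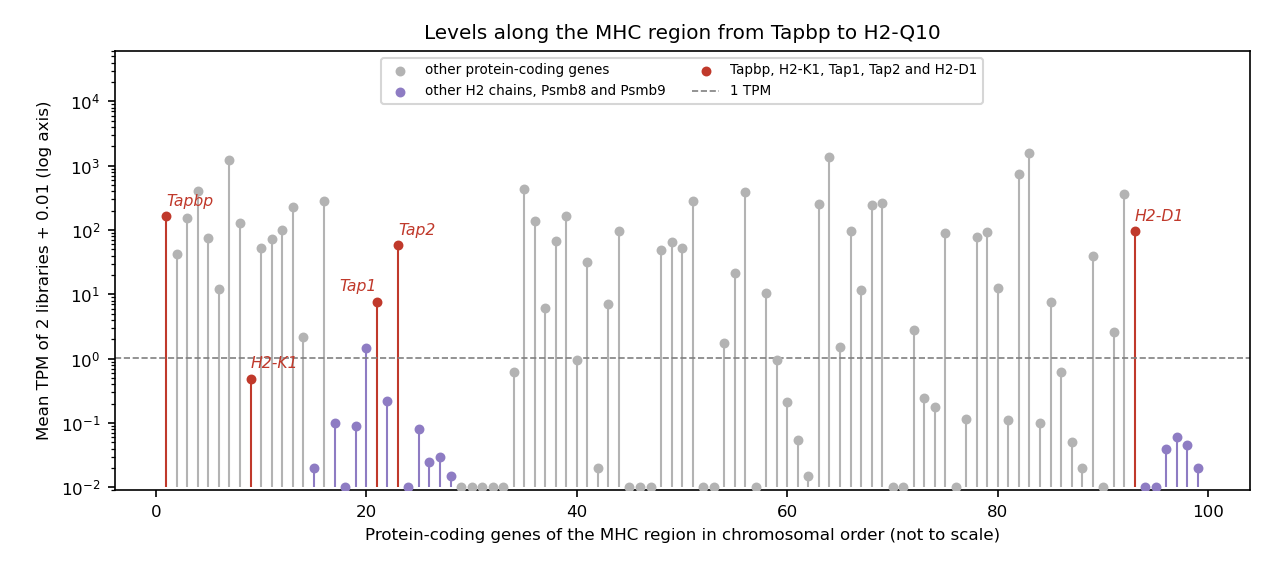
Mean TPM of the 2 libraries + 0.01 (log axis) for the 99 protein-coding genes from Tapbp to H2-Q10, in chromosomal order and not to scale; red marks the 5 genes of the set, purple the other H2 chains with Psmb8 and Psmb9, grey the rest, and the dashed line 1 TPM. H2-K1 sits below the line between neighbours above it, and the purple class II and H2-Q genes lie below it too.

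The transcripts behind these gene levels were often not coding transcripts of the basic set. The authors' transcript tables divide each gene's reads over its annotated transcripts, and GENCODE gives each transcript a type. The basic set is GENCODE's selection of transcripts for each gene. Its coding members are not all full length: in Irf5 they include models of 2189 and of 712 bases. A retained intron model is a transcript with an unspliced intron and no annotated protein. For 10 of the 18 detected genes the transcript with the highest mean TPM was a basic coding transcript. It was another coding model in 2, a retained intron model in 4 (Irf9, Ifih1, Tap1 and Tap2), a model subject to nonsense-mediated decay in 1 (Ifngr1) and a transcript not listed in the later annotation in 1 (Irf3). Among all 8581 detected protein-coding genes, 6394 were led by a basic coding transcript and 7.70% by a retained intron model. In 7 of the 18 genes (38.9%) less than 50% of the TPM lay in basic coding transcripts, beside 26.5% of all detected protein-coding genes. The median share in basic coding transcripts was 57.2% over the 18 genes and 96.8% over all detected protein-coding genes.

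Tap2 showed the lowest share. Its full coding transcript, of 3442 bases, was at 0.76 TPM and 1.51 TPM, which is 1.31% and 2.65% of the gene. A retained intron model of 2561 bases was at 30.1 TPM and 31.6 TPM and took 89.2% and 87.9% of the gene's counts. Most of the remaining TPM lay in a coding fragment of 378 bases, at 27.1 TPM and 23.7 TPM. At the gene level Tap2 was 7.70-fold and 7.36-fold above Tap1, a log2 ratio of 2.91 ± 0.0462 (SD, n = 2). In basic coding transcripts the order turned, with 3.95 TPM and 4.44 TPM for Tap1 against those 0.76 TPM and 1.51 TPM for Tap2.

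Ifih1 had 90.5% and 84.1% of its TPM, and 85.3% and 75.5% of its counts, in retained intron models. Its 2 basic coding transcripts came to 0.67 TPM and 1.12 TPM. In Irf9 a retained intron model of 630 bases gave 30.3 TPM and 52.1 TPM. Basic coding transcripts of Irf9 came to 8.88 TPM and 12.4 TPM, and by counts they held more than the retained intron models, 59.4% and 54.5% of the gene. Short models weigh more in TPM than in counts, since TPM divides by length.

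Tapbp depended on that weighing as well. Its full coding transcript, of 2894 bases, was at 21.7 TPM and 20.6 TPM, 12.5% and 13.5% of the gene's TPM but 52.2% and 55.0% of its counts. A coding model of 413 bases took 53.9% and 55.6% of the TPM. Irf3 had 92.1% and 92.2% of its TPM in 7 transcripts that the later annotation does not list, so their type is not given here. Ifngr1 was led by a decay model of 433 bases at 1.79 TPM and 1.62 TPM, while its full coding transcript, at 0.97 TPM and 1.37 TPM, held 78.8% and 84.8% of the counts. For B2m, Stat2 and Irf2 every annotated transcript in the deposited data was a basic coding one. Their full share, and their place among the 10 genes led by such a transcript, were thus fixed by the annotation. In H2-D1 a single basic coding transcript of 2102 bases held 98.96% and 98.54% of the TPM. By counts instead of TPM, a basic coding transcript led 13 of the 18 genes. The same number over all detected protein-coding genes is not given here.

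**Figure D3:**
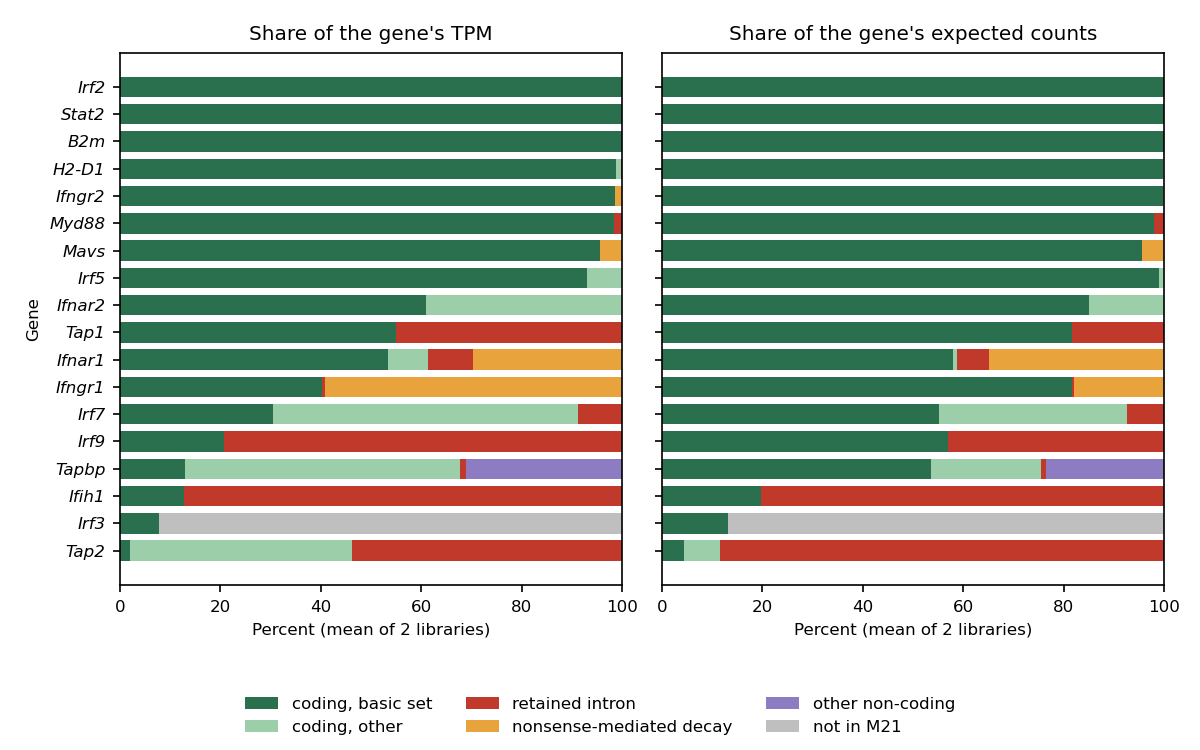
Share of each detected gene's TPM (left) and expected counts (right) in 6 classes of transcript, in percent and as the mean of the 2 libraries, with genes ordered by the share of TPM in basic coding transcripts. Tap2 and Ifih1 are mostly red (retained intron) in both panels, Irf9, Tap1, Tapbp and Ifngr1 show more of the basic coding class by counts than by TPM, and Irf3 is mostly in transcripts not listed in GENCODE M21.

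Several genes overlap another expressed gene, and whether the counting used strand is not given in the sources used here. Irf3 overlaps Bcl2l12 (65.1 TPM and 75.1 TPM) on the opposite strand over 1065 bases, Irf5 overlaps Tnpo3 (55.1 TPM and 63.7 TPM) and Myd88 overlaps Acaa1a (70.1 TPM and 53.8 TPM). Tapbp shares 3422 bases of gene span with Zbtb22 on the same strand (41.3 TPM and 42.5 TPM). Reads in such stretches may have been assigned to either gene, and the part of this in the levels was not tested.

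Between the libraries most tested genes of the set differed by less than 2-fold. The test was a two-sided exact binomial test of each gene's rounded counts, given the libraries' TMM-scaled totals, with Benjamini-Hochberg adjustment over 11636 genes with at least 10 counts in 1 library. The test sets the 2 libraries against each other and takes only counting error into account. A gene was called at an adjusted p under 0.05 and a difference of at least 2-fold. Of the 34 genes 23 had enough counts, and 2 were called, both higher in replicate 2. Over all genes tested 5.62% were called in either direction and 3.82% as higher in replicate 2. The log2 ratio of replicate 2 to replicate 1 was above 0 in 14 of the 23 and below 0 in 9. Its median was 0.09, beside 0.01 over all genes tested.

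Mavs had 365 counts in replicate 1 and 1125 in replicate 2, a log2 ratio of 1.12 with an adjusted p of 1.01e-41 in the exact binomial test. Its transcripts differed too in the deposited split, which divides shared reads by a model. A coding transcript of 2867 bases had 0 counts in replicate 1 and 440 in replicate 2, where it made up 40.7% of the gene's TPM. By the deposited posterior mean, another estimate of that share, it held 2.81% in replicate 1 and 39.4% in replicate 2. The other main coding transcript, of 3057 bases, had 344 and 650 counts. Tmem173 had 65 and 194 counts, a log2 ratio of 1.08 with an adjusted p of 1.52e-07 in the exact binomial test. With edgeR's exact test and a dispersion estimated from the 2 libraries, neither was called (adjusted p 0.569 for Mavs and 0.839 for Tmem173). That dispersion took both libraries as 1 group, so it includes the differences under test and this setting is not an independent check of Mavs and Tmem173. Beside these, the summed level of the 8 B cell markers was 0.10 TPM in replicate 1 and 0.42 TPM in replicate 2, with Ms4a1, Ebf1 and Cd22 among those at 0 in both. Most of that rise was Ighm, with 6 and 32 counts (0.07 TPM and 0.32 TPM), a log2 ratio of 1.92 and an adjusted p of 0.00257 in the exact binomial test, and it was the 1 marker called. The part of this in the differences was not tested.

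Irf9 had the next highest log2 ratio among the detected genes, 0.42 by counts (2116 and 4001), below the 2-fold requirement. H2-K1 (0.93) and Usp18 (0.84) had higher ratios on few counts, with adjusted p of 0.0846 and 0.0573 in the exact binomial test. Among the receptors Ifngr2 had the lowest ratio, -0.48, and among class I genes H2-D1, -0.38, both lower in replicate 2 by less than 2-fold.

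**Figure D4:**
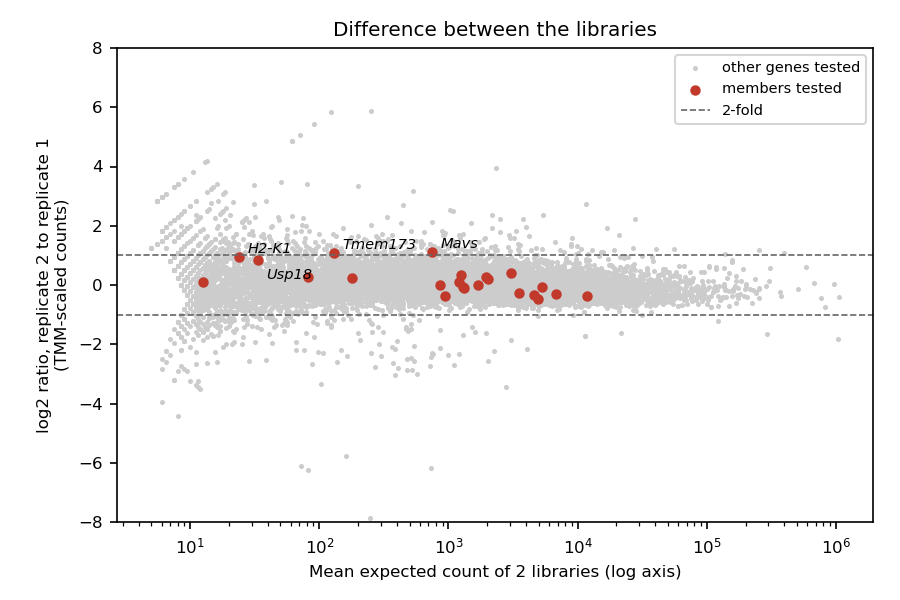
Log2 ratio of replicate 2 to replicate 1 (TMM-scaled counts) against the mean expected count of the 2 libraries (log axis) for the 11636 genes tested in grey and the 23 genes of the set in red; dashed lines mark 2-fold. Mavs and Tmem173 lie just above the upper line, and H2-K1 and Usp18, with few counts, just under it.

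The rest of the pathway was read from 8 lists of further genes, 164 genes in all. Of these 60 were detected, beside 40.0% of all protein-coding genes. None of the 21 interferon ligand genes was detected, and the list held a single count, of Ifna2 in replicate 1. Of 13 genes of JAK-STAT signalling 12 were detected. By gene-level TPM Jak1, a kinase of both receptor types, was at 260.0 TPM and 257.0 TPM. Its partners were lower, Tyk2 at 16.6 TPM and 18.6 TPM and Jak2 at 7.19 TPM and 9.45 TPM. By counts, which are not corrected for length, the gap was smaller. Jak1 had 8313 and 11528 counts, Tyk2 4153 and 5883, and Jak2 1963 and 3262. No gene of the lists was split by transcript. The feedback inhibitor Socs1 was at 43.4 TPM and 30.5 TPM. Ifnlr1, the specific chain of the type III receptor, had no count.

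Of 54 further interferon-stimulated genes 22 were detected, and 15 had no count in either library. Highest were Pml, the scaffold of nuclear bodies, at 160.4 TPM and 219 TPM, and Ifitm2, a membrane protein that hinders viral entry, at 133 TPM and 172 TPM. Others were Trim25 (68.8 TPM and 76.2 TPM), which assists RIG-I, and Bst2 (50.1 TPM and 41.7 TPM), which tethers virus at the cell surface. Rsad2, Mx1 and Rtp4 had no count, and Ifitm3 had 1 count in each library. The list spanned the whole range, with 13 genes at a mean of 10 TPM or more and a median of 0.18 TPM and 0.19 TPM. Its detected share was close to the 40.0% of all protein-coding genes.

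Of 29 further genes of nucleic acid and Toll-like receptor sensing 11 were detected, led by Irak1, a kinase downstream of Myd88, at 277 TPM and 266 TPM. Tbk1, the kinase that activates Irf3, was at 3.18 TPM and 4.34 TPM. Of 4 other IRF genes 3 were detected, among them Irf2bp1, a corepressor that binds Irf2, at 139 TPM and 107 TPM.

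Of 20 other class I chains 2 were detected, H2-T23 at 9.35 TPM and 9.85 TPM and H2-T22 at 3.01 TPM and 5.73 TPM. Both are non-classical chains in the MHC. Of 10 genes of peptide supply and folding 8 were detected. Pdia3 and Calr, both chaperones, were at 410 TPM and 317 TPM and at 240 TPM and 255 TPM. The proteasome activator Psme1 was at 129 TPM and 122 TPM. By gene-level TPM each of these genes was above H2-D1, the second highest class I gene of the set, in both libraries. By counts, which are not corrected for length, only Calr of these was above H2-D1 (11263 and 12193). Calr had 24397 and 35638 counts, Pdia3 8762 and 9840, and Psme1 6736 and 8109. The 3 immunoproteasome subunits were spread out, with Psmb10 at 42.5 TPM and 40.7 TPM, Psmb9 at 1.26 TPM and 1.61 TPM and Psmb8 at the 0.26 TPM and 0.16 TPM given above. Erap1, which trims peptides in the endoplasmic reticulum, was at 0.30 TPM and 0.43 TPM.

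Of 15 genes of the RFX complex and class II presentation 4 were detected, including all 3 RFX subunits. Rfxap was at 103 TPM and 80.6 TPM, Rfx5 at 9.52 TPM and 11.8 TPM and Rfxank at 2.29 TPM and 2.96 TPM. The RFX complex binds class I and class II promoters and recruits Nlrc5 and Ciita, which were not detected. Of the 79 genes of the 8 lists with enough counts, 1 was called between the libraries. Over all genes tested 5.62% were called in either direction and 3.82% as higher in replicate 2. The list gene called was Cd74, the invariant chain of class II, with 43 and 137 counts (0.70 TPM and 1.78 TPM). It had a log2 ratio of 1.17 and an adjusted p of 3.01e-06 in the exact binomial test. No list gene was called higher in replicate 1.

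**Figure D5:**
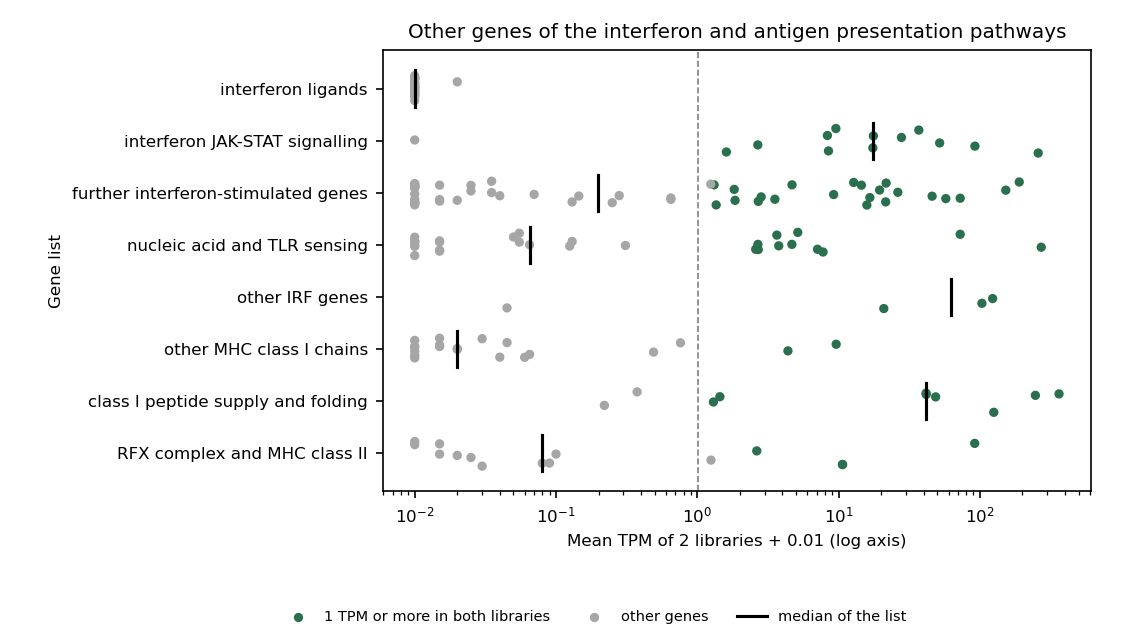
Mean TPM of the 2 libraries + 0.01 (log axis) for each gene of 8 lists of further pathway genes; green genes were at 1 TPM or more in both libraries, grey ones were not, vertical bars are list medians, points are spread vertically only to be seen, and the dashed line marks 1 TPM. All 21 ligand genes lie at the left edge or next to it, and 12 of 13 JAK-STAT genes lie right of the dashed line.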

How the data were processed

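RNA-seq of polyadenylated RNA was made from 2 G1E libraries. Per the deposited file descriptions, the authors aligned each library to transcripts on mm10 with annotation M4, and which aligner and counter they used is not given in the sources used here. The deposited tables hold expected counts (estimated read-pair counts, shared reads divided by a model) and the authors' TPM and FPKM, scaled by effective length and library total. They also hold the authors' percent of a gene's TPM per transcript, and the deposited credibility bounds of TPM, a signal that was read as given.

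Of 43346 gene entries 98.0% were matched by identifier to GENCODE M21. Genes with 10 or more counts in 1 library were tested as described, on counts rounded to whole numbers, with TMM factors of 0.960 and 1.04 (edgeR 4.0.16, R 4.3.3; Python 3.11.15, SciPy 1.17.1). On simulated data for the comparison of replicate 2 with replicate 1, 193 of 200 genes changed 2.5-fold were recovered among 11544 tested, and 200 of 200 changed 4-fold among 11543, each with 1 false call. The simulated counts held counting error only, as the test assumes, and the changed genes were drawn from those with enough counts. They cannot show how often the test calls falsely where libraries differ by more than counting error. Intervals and limits of a count of 0 cover counting error only: 3 counts are 0.0484 CPM in replicate 1 and 0.0372 CPM in replicate 2.

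Named genes are the 34 members, the lists, genes overlapping a member and detected neighbours in the 3 clusters described, plus Gata1 as the labelled gene. The members and lists were chosen with earlier results of these data known. Other scalings, count minimums, fold requirements, tests, level measures, single libraries and motif windows were tried. Some genes of the lists are not reported here by name.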

Additional observations from a re-analysis of the deposited data

How the results depend on the processing

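The count of 2 called genes was 2 or 3 under other scalings, count minimums and removal of a GC trend, where H2-K1 was the third with library totals only and with the GC trend removed. It became 13 with no fold requirement (6 of them higher in replicate 2), where 7495 of all 11636 genes were called, 0 at 4-fold or more, where 169 were, and 0 of 23 with edgeR's exact test, where 2 had an unadjusted p under 0.05 and 114 of all genes were called. The median over members, 3.42 TPM as the mean of both libraries, was 14.4 TPM over detected members only. The class I to interferon-induced log2 ratio was 6.47 with 1 TPM added to each sum. The ISRE core was in 3 windows when only the 100 bases before the start were read (1.14% of all genes), in 5 on the forward strand only (2.06%) and in 14 with 1 mismatch allowed (38.9%). The GAS motif was in 2 windows over those 100 bases (3.00%). The Ifngr1 to Ifngr2 log2 ratio was -4.46 in basic coding transcripts only, an alternative chosen after seeing the data. These settings read fewer or more bases, genes or letters by construction. With 1 library left out at a time, 18 or 19 genes were detected, the class I log2 ratio was 7.69 to 8.79, and 8 or 10 genes were led by a basic coding transcript. Leading transcripts by counts, and the checks of H2-D1 against H2-K1 (log2 ratio 7.17 to 8.30) and of Tap2 against Tap1 (2.88 to 2.94), were chosen after seeing the data. No paired analysis was possible because there is 1 group. Depth limits H2-K1, Isg15, Usp18 and Irf1, which rest on 48 counts or fewer in each library.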
